A study of Rattus norvegicus with 24 samples.

Results

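The untreated cystic kidney was described from the 6 samples labelled Ctrl, out of 24 samples in the series. Each sample was the left kidney of a different male rat of the PKD/Mhm (Cy/+) line, 8 months old. The line carries a missense mutation in Anks6, and the heterozygous Cy/+ animals develop slowly progressing cystic kidney disease. Cystic animals had been told apart from non-cystic ones by palpation of the abdomen, and no non-cystic animal was analysed here, so every level below belongs to a diseased organ without a healthy reference. The Ctrl animals were given neither cells nor conditioned medium, and no vehicle is named for them. The treatment entry of the labels, a monthly injection for 6 months, is worded the same for all 24 samples. RNA came from whole, snap-frozen kidney tissue and was sequenced on a BGISEQ-500 instrument. Animals keep the numbers of their labels (1, 12, 18, 22, 23 and 24). With 1 group there was no contrast to test, and values are means ± SD over the 6 animals (n = 6).

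The nephron filters blood in the glomerulus and then works on the filtrate in sequence. The proximal tubule takes back most solutes and secretes organic ions, the thick ascending limb and distal convoluted tubule reabsorb salt, and the collecting duct sets water, potassium and acid output through its principal and intercalated cells. In polycystic kidney disease tubules widen into cysts lined by dedifferentiated epithelium, while the interstitium between them gains fibroblasts, matrix and macrophages. A whole-kidney profile adds all these compartments together, and in such bulk samples fewer cells of a type and less RNA per cell cannot be told apart.

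Levels are given as TPM, transcript abundances scaled by length and by library total, so they can be set side by side between genes. Total estimated counts were 13320840 to 14125457 in 5 animals and 10405757 in Ctrl animal 23. Between 13993 and 14144 of the 17334 genes listed had at least 1 count in an animal. A level of 3 counts corresponded to between 0.212 and 0.288 CPM (counts scaled to library total). The ribosomal RNA gene Rn18s stood at 3153 TPM in Ctrl animal 1 and between 457 and 1131 TPM in the other animals. The libraries also differed with transcript length. In the shortest of 5 equal classes of transcripts the median log2 ratio of an animal to the mean of the 6 lay between -0.06 and 0.04. In the longest class it was -0.27 in Ctrl animal 1, -0.24 in Ctrl animal 18 and 0.26 in Ctrl animal 23. Over all 10339 genes with a mean of 5 TPM or more it was -0.18 in Ctrl animal 1 and 0.14 in Ctrl animal 23. Ctrl animal 23 was highest for 40.4% of these genes and Ctrl animal 1 lowest for 41.7%. Once each animal had been centred within these length classes, Ctrl animal 23 was highest for 20.7%. As deposited, the share of genes highest in an animal was 9.01% for animal 1, 19.8% for animal 12, 4.92% for animal 18, 5.88% for animal 22 and 19.9% for animal 24. The share lowest was 7.34% for animal 12, 16.5% for animal 18, 7.40% for animal 22, 6.23% for animal 23 and 20.8% for animal 24. After centring, animal 1 was highest for 26.05%, animal 12 for 12.3% and animal 24 for 25.3%. Counts of list members that peak in an animal are read against these shares.

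**Figure D1:**
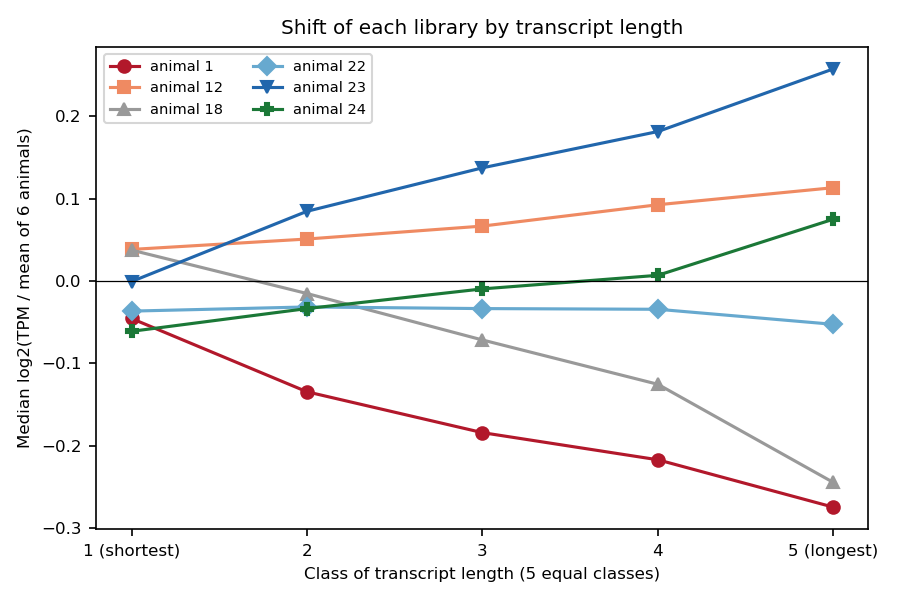
Median log2 ratio of TPM to the mean of the 6 animals (y axis) for genes in 5 equal classes of transcript length (x axis, shortest to longest), 1 line per Ctrl animal. The lines lie within 0.1 of each other for short transcripts and spread from -0.27 in animal 1 to 0.26 in animal 23 for the longest.

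The defining markers of the kidney were present. The slit diaphragm gene Nphs1 of podocytes was at 36.3 ± 12.7 TPM, the proximal phosphate carrier Slc34a1 at 1022 ± 577 TPM, Umod of the thick ascending limb at 1769 ± 1083 TPM, the thiazide-sensitive cotransporter Slc12a3 at 609 ± 340.1 TPM and the water channel Aqp2 at 404 ± 147 TPM. Genes of neighbouring organs were low. Of 10 liver genes 1 reached a mean of 5 TPM, the fibrinogen gene Fgb at 8.64 ± 2.29 TPM, and the albumin gene Alb was at 0.0753 TPM. Of 7 adrenal cortex genes 1 did so, Cyp11a1 at 14.2 ± 5.73 TPM, and of 12 muscle genes 2 did so, Tnnt2 and Tnnt3. The myoglobin gene Mb and the distal tubule gene Pvalb were listed at 0 in all 6 animals. A value of 0 or near 0 can be a failed estimate in these files, since the core ribosomal protein gene Rpl8 was listed at 5.72 TPM on average and at 0 in Ctrl animal 23.

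Abundance was spread over many genes. The shares below hold for the genes listed, and none of the 30 most abundant was a mitochondrially encoded gene. Of 17334 genes, 10339 (59.6%) had a mean of 5 TPM or more and together held 99.4% of the summed TPM, 1625 reached 100 TPM and 142 reached 1000 TPM. The 10 most abundant genes held 8.04% of the summed TPM, the first 30 held 15.3% and the first 100 held 28.9%. The cut at 5 TPM fell between Ncr1 at 4.9997 TPM and Triqk at 5.01 TPM.

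The most abundant gene by TPM was Fxyd2, which encodes the gamma subunit that modulates the sodium pump, at 14243 ± 3291 TPM. Its mean estimated count was 7363, against 138390 for Gpx3 and 115054 for Spp1. Its first place thus held only after division by transcript length. It measured 10727, 13019.9, 13904, 13501, 20521 and 13786 TPM in Ctrl animals 1, 12, 18, 22, 23 and 24, so that animal 23 stood above the other 5. Its partner Atp1b1, the beta subunit of the same pump, was also highest in Ctrl animal 23 (4568 TPM) and averaged 3277 ± 748 TPM. Second came Gpx3, the secreted glutathione peroxidase that the proximal tubule supplies to plasma, with 8408, 6609, 11918, 17328, 5794 and 12576 TPM in the same order of animals and a mean of 10439 ± 4349 TPM. The ranges of Fxyd2 and Gpx3 overlapped, so their order was not the same in every animal. Gpx3 exceeded Fxyd2 in Ctrl animal 22 alone. Next was Spp1, which encodes osteopontin, a secreted phosphoprotein of injured and distal tubule cells. It varied little, with 10213, 7714, 8586, 8541, 9357 and 7823 TPM in the 6 animals and a mean of 8706 ± 949 TPM.

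Next in order were genes of the cytoskeleton, iron storage and translation. Tmsb4x, an actin-binding peptide abundant in leukocytes, measured 11426, 9711, 8012, 6283, 5725 and 4825 TPM in Ctrl animals 1, 12, 18, 22, 23 and 24 and so was highest in animal 1 and lowest in animal 24. The ferritin heavy chain gene Fth1 measured 7382, 6333, 8336, 7862, 6116 and 8688 TPM and the light chain gene Ftl1 5334, 4830.0, 6309, 6748, 4354 and 6758 TPM in Ctrl animals 1, 12, 18, 22, 23 and 24. Both ferritin genes were lowest in animals 12 and 23. The elongation factor Eef1a1 was the steadiest of the first 30, at 7141, 7619, 6950.1, 7004, 7342 and 6975 TPM, a coefficient of variation (CV, SD divided by mean) of 0.04. The calcium-binding protein gene S100a11 measured 8710.1, 6749.9, 6791, 5126, 6461 and 4433 TPM, the growth-related gene Tpt1 5708, 5483, 5346, 5067, 4471 and 4508 TPM and the ribosomal stalk gene Rplp1 5553, 5888, 5030.0, 4781, 5037 and 4059.9 TPM. These last genes were lowest in Ctrl animal 24, or in 23 for Tpt1, and highest in animals 1 or 12.

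Of the 30 most abundant genes 9 encoded ribosomal proteins, among them Rplp1, Rpl41, Rps29, Rps27, Rps24, Rpl21 and Rps26. Others were Mgp, an inhibitor of tissue calcification (4238 ± 1645 TPM), Cd74, the invariant chain of MHC class II (4196 ± 1003 TPM), the metallothionein gene Mt2A (4036 ± 1323 TPM), the protease inhibitor gene Cst3 (3819 ± 605 TPM), Defb1, a defensin of the distal nephron (3514 ± 1009.8 TPM), Gapdh (3104 ± 190.3 TPM), Actb (3076 ± 389.6 TPM), Tmsb10 (2996 ± 1082 TPM) and Igfbp7 (2755 ± 288 TPM). The alpha globin genes Hba-a2 and Hba-a1 owed their place to 1 animal. On counts scaled between libraries and not divided by transcript length, only 12 of these 30 genes stayed among the first 30. Length division and library scaling both differed there. Rescaling the TPM of every animal to 1 total kept all 30.

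**Figure D2:**
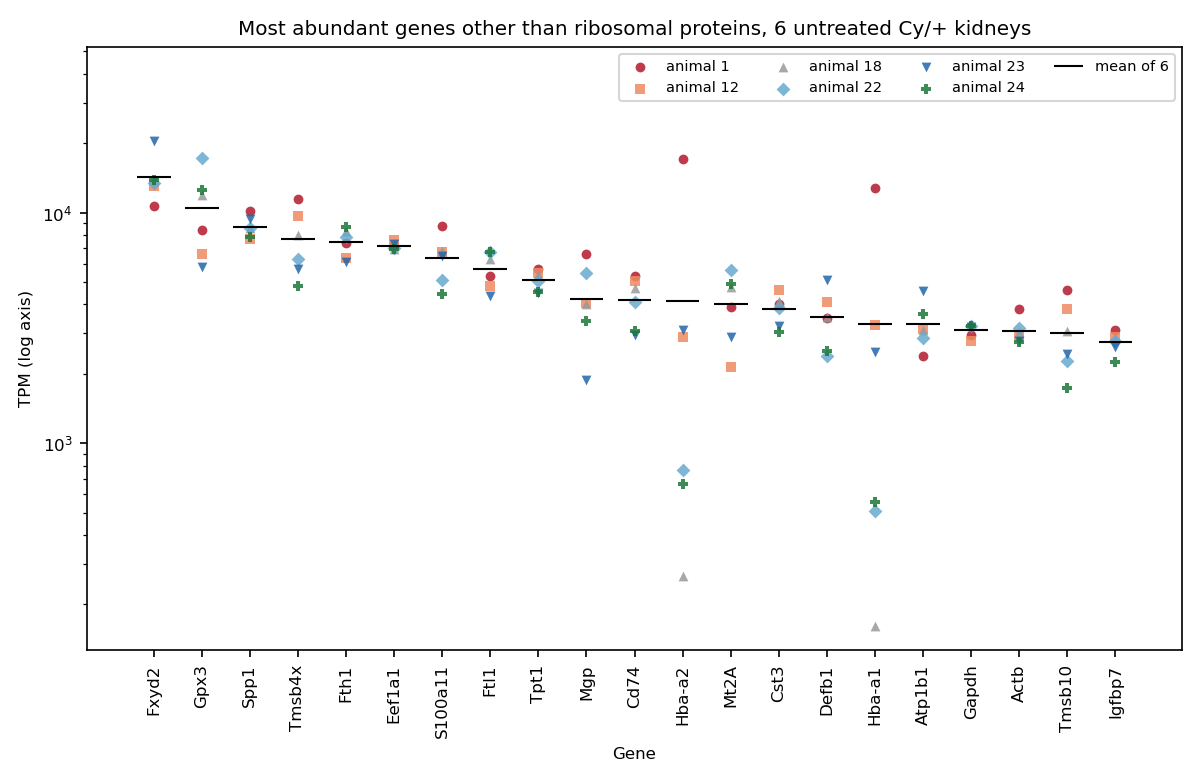
TPM on a log axis (y) of 21 of the 30 most abundant genes, those that encode no ribosomal protein (x, in order of mean TPM), 1 symbol per Ctrl animal and a bar for the mean of 6. Most genes spread less than 3-fold, while Hba-a2 and Hba-a1 reach 17144 and 12799 TPM in animal 1 and stay at or under 3268 TPM elsewhere.

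The podocyte genes of the glomerulus stayed below a CV of 0.5. The 13 podocyte genes summed to 731, 1093, 751, 891, 988 and 902 TPM in Ctrl animals 1, 12, 18, 22, 23 and 24, a mean of 893 ± 138 TPM, and none of the 12 above 5 TPM had a CV of 0.5 or more. Their median CV was 0.244, above the 0.164 of all 10339 genes, and the slit diaphragm gene Nphs1 had a CV of 0.35. The actin cross-linker Actn4, which other cells also use, was at 332 ± 18.9 TPM. Ctrl animal 12 was highest for 8 of the 12, both as deposited and after centring by length.

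The proximal tubule lists had higher CVs, with a median of 0.518 for the early and 0.709 for the late list. The early (S1/S2) list of 15 genes summed to 2935, 2790.4, 6839, 10063, 3593 and 10143 TPM in Ctrl animals 1, 12, 18, 22, 23 and 24, a 3.64-fold range. Animals 18, 22 and 24 lay at 6839 TPM or above and animals 1, 12 and 23 at 3593 TPM or below. Miox, which starts the breakdown of inositol, was at 1275 ± 988 TPM, with a lowest value of 337, a median of 1141 and a highest value of 2796 TPM. The gluconeogenic enzyme gene Pck1 had the highest CV of the list, 0.85, and was highest in Ctrl animal 22 (759.9 TPM) and lowest in Ctrl animal 12 (61.4 TPM). Other members were steadier: the glucose carrier Slc2a2 had a CV of 0.18 and the glucose cotransporter Slc5a2 of 0.34. In all, 8 of 15 had a CV of 0.5 or more, against 4.44% of all 10339 genes.

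The late (S3) list had the same high and low animals and a wider range. Its 14 genes summed to 1422, 1146, 3362, 3704, 1669 and 5865 TPM in Ctrl animals 1, 12, 18, 22, 23 and 24, a 5.12-fold range, and 9 of the 11 above 5 TPM had a CV of 0.5 or more. Ctrl animal 24 was highest for 8 of the 11 and animals 1 or 12 were lowest for all 11. Slc3a1, the heavy subunit of the cystine carrier, measured 146, 125, 659, 579.9, 223 and 1477 TPM. The glutathione-cleaving enzyme gene Ggt1 measured 259.5, 193, 666, 646, 357 and 1284 TPM in the same order of animals. Napsa, an aspartic protease gene, moved least in this list (CV 0.26). The organic anion carrier gene Slc22a7 and the carrier gene Slc22a13 stayed under 5 TPM.

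The thick ascending limb was lowest in Ctrl animal 1 and highest in Ctrl animal 24. Its 13 genes summed to 1973, 2903, 3608, 3309, 5233 and 6572 TPM in Ctrl animals 1, 12, 18, 22, 23 and 24. Umod, which encodes uromodulin, the main urinary protein, measured 800.5, 863, 1768, 1557, 1841 and 3784 TPM. The furosemide-sensitive cotransporter gene Slc12a1 measured 105, 131, 219, 189, 212 and 507 TPM and was likewise highest in animal 24. Ctrl animal 24 was highest for 7 of the 13 and animal 23 for the other 6. The list for the thin limb was almost wholly Fxyd2, which other tubule segments also express, so it gave no separate reading of that segment. Of its other genes the water channel Aqp1, shared with the proximal tubule, was at 382 ± 212 TPM and the small heat shock gene Cryab at 188 ± 33.1 TPM.

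The segments after the macula densa were highest in Ctrl animal 23. The 8 distal convoluted tubule genes found summed to 818, 1549, 969, 1012, 2314 and 998 TPM in Ctrl animals 1, 12, 18, 22, 23 and 24. Slc12a3 measured 333, 721, 432, 449.8, 1252 and 469 TPM in this order, and the calcium-binding gene Calb1 measured 334, 587, 387, 398, 711 and 338 TPM. Animal 23 was highest for 6 of the 7 genes above 5 TPM. The 12 principal cell genes summed to 1301, 2085, 1533, 1258, 3039.5 and 1427 TPM, and animal 23 was highest for 10 of 12. Hsd11b2, which shields the mineralocorticoid receptor from glucocorticoids, was at 819 ± 365 TPM with 1523 TPM in animal 23. Aqp2 measured 319, 558, 337, 267, 622 and 321 TPM, and Scnn1g, a subunit of the epithelial sodium channel, was at 58.3 ± 26.2 TPM. The 14 intercalated cell genes summed to 1372, 2167, 1868, 1565, 3401 and 1842 TPM, and animal 23 was highest for all 14. The carbonic anhydrase gene Car2 was at 535 ± 83.1 TPM, the proton pump genes Atp6v1b1 and Atp6v1g3 at 205 ± 87.6 TPM and 202 ± 62.4 TPM, and the anion exchanger gene Slc4a1 at 62.9 ± 39.4 TPM. After centring by transcript length animal 23 was still highest for 6 of 7, 10 of 12 and 14 of 14 of these genes, while its share of all genes fell to 20.7%.

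**Figure D3:**
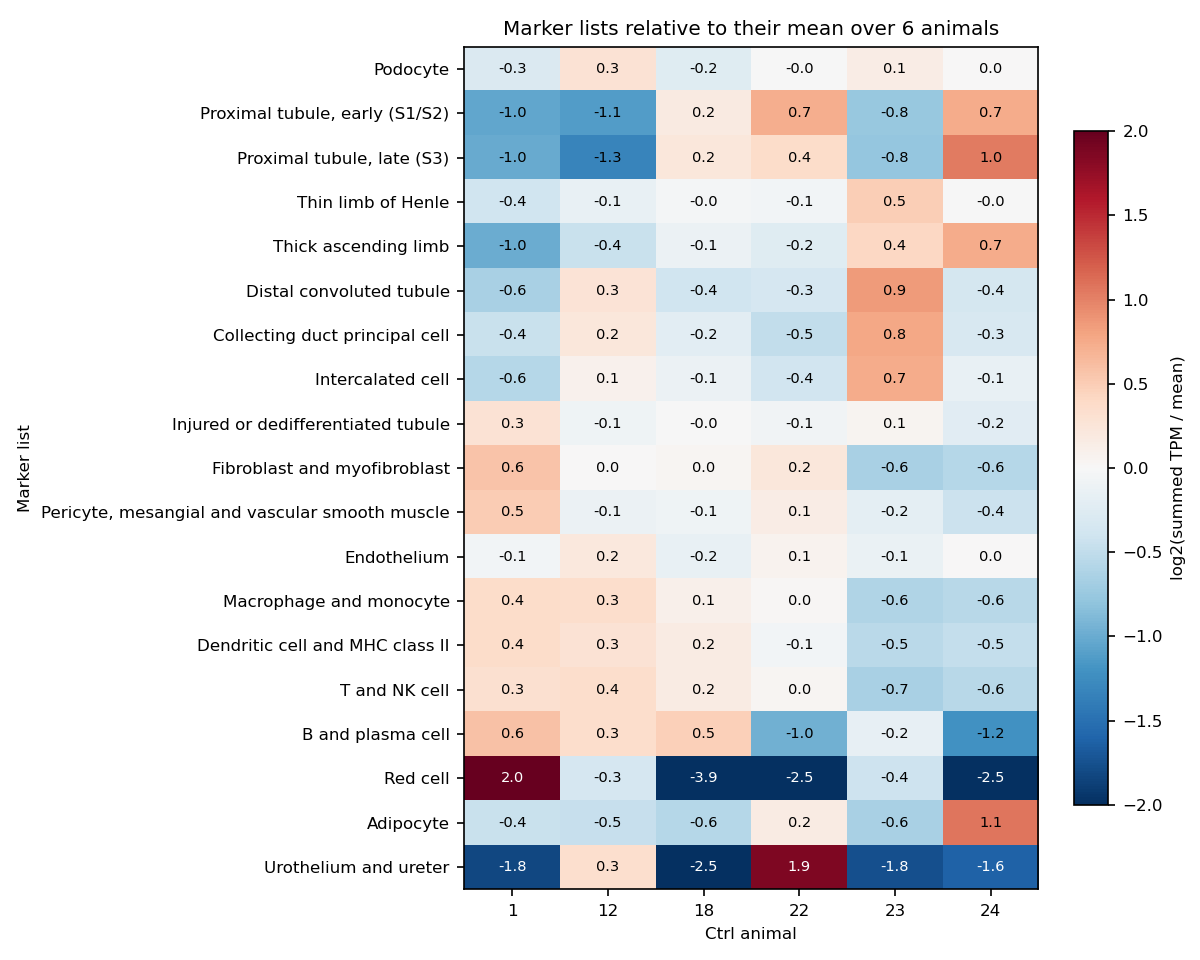
log2 of the summed TPM of each cell type list over its mean (colour and number) for the 6 Ctrl animals (columns), with colours ending at a size of 2 in either direction. Proximal lists are high in animals 18, 22 and 24, distal lists in animal 23, macrophage and T cell lists in animals 1 and 12, and the red cell list in animal 1.

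Genes of injured or dedifferentiated tubule cells were abundant in every animal. The 21 genes summed to 15556, 11979, 12705, 12109, 13251 and 10896 TPM in Ctrl animals 1, 12, 18, 22, 23 and 24, mainly from Spp1. Clu, a secreted chaperone, was at 1231 ± 286 TPM, the intermediate filament gene Vim at 588 ± 137 TPM, the iron-siderophore binder Lcn2 at 279 ± 125 TPM and the injury receptor Havcr1 at 70.7 ± 16.2 TPM. Lcn2 had a lowest value of 164, a median of 255 and a highest value of 519.6 TPM, with the highest value in Ctrl animal 1. Of the 20 genes above 5 TPM, animal 1 was highest for 12 and animal 24 lowest for 12. The single gene with a CV of 0.5 or more was Prom1, highest in animal 24 (78.4 TPM). Sox9 and Cdh6 were highest there too, and Havcr1, Krt8 and Pax2 in animal 23. Of 18 proliferation genes 13 reached a mean of 5 TPM, and the list summed to 353 ± 34.7 TPM. The cycle marker Mki67 and Top2a stayed under 5 TPM, at 2.69 and 3.75 TPM, while Pcna was at 87.04 ± 7.496 TPM.

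Fibroblast and matrix genes were highest in Ctrl animal 1. The 18 fibroblast and myofibroblast genes summed to 3479, 2343, 2397, 2719, 1496 and 1579.8 TPM in Ctrl animals 1, 12, 18, 22, 23 and 24. Animal 1 was highest for 14 of the 17 genes above 5 TPM, while animals 23 or 24 were lowest for 16, against 9.01% and 27.04% of all genes. After centring by length these counts were 16 and 17, against 26.05% and 40.7%. Tagln and Acta2, contractile genes shared with smooth muscle, were at 678 ± 229 TPM and 214 ± 60.02 TPM. The matrix proteoglycan gene Dcn was at 486 ± 188 TPM and Dpt, another matrix gene, at 243 ± 72.2 TPM. Postn, a matrix gene of activated fibroblasts, measured 48.8, 16.2, 7.12, 8.26, 11.4 and 6.800 TPM and had the highest CV of the list (0.99). Col3a1 measured 347, 208, 178, 192, 92.98 and 113 TPM, whereas the basement membrane gene Col4a1 was steadier at 198 ± 32.9 TPM. The collagen list held 1 gene with a CV of 0.5 or more, Col4a3 of the mature glomerular basement membrane, and it had the other animals at its ends, with 3.77 TPM in animal 1 and 22.9 TPM in animal 24. The endothelium was among the steadiest cell types, at 895 ± 85.7 TPM over 15 genes with a median CV of 0.158. Its most abundant genes were Eng (170.4 ± 27.4 TPM), Plvap (138 ± 21.4 TPM) and Emcn (117 ± 8.02 TPM).

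Macrophage, antigen presentation and T cell sums were lowest in animals 23 and 24. The 21 macrophage and monocyte genes summed to 5354, 5281, 4469, 4238, 2742 and 2833 TPM in Ctrl animals 1, 12, 18, 22, 23 and 24. Animals 1 or 12 were highest for 17 of the 19 genes above 5 TPM, and animals 23 or 24 lowest for all 19, against 28.8% and 27.04% of all genes. Lysozyme (Lyz2) was at 1957 ± 591 TPM, the signalling adaptors Fcer1g and Tyrobp at 385 ± 104 TPM and 296 ± 84.03 TPM, and the complement gene C1qa at 209 ± 60.8 TPM. Trem2, a lipid-sensing receptor, varied most (31.3, 38.02, 20.8, 18.9, 16.97 and 11.2 TPM). The haemoglobin scavenger receptor Cd163 was low, at 1.52 TPM.

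The antigen presentation genes followed the same animals. The dendritic cell and MHC class II list summed to 11162, 10561, 9714, 8359.8, 5948 and 6249.8 TPM, and animals 1 or 12 were highest for all 13 genes above 5 TPM. Cd74 measured 5305, 5044, 4711, 4093, 2959 and 3065 TPM, RT1-Ba was at 1386 ± 378 TPM and RT1-Da at 1055 ± 298 TPM. RT1 genes are close copies of each other, so reads may have been divided between them by the estimation and single values are uncertain. T and NK cell genes summed to 422, 433, 381, 349, 216 and 229.5 TPM. Cd4, which macrophages also carry in the rat, was at 74.1 ± 15.2 TPM and the T cell receptor chain gene Cd3e at 33.8 ± 10.4 TPM. Of 14 B and plasma cell genes 10 were found, and Cd79a, Jchain, Igh-6 and Ighm were not. Those found summed to 99.02, 83.97, 91.4, 34.1, 59.1 and 28.5 TPM, a sum that leaves out the missing genes. Ctrl animal 24 was lowest for all 6 above 5 TPM, and the B cell receptor gene Cd79b was at 15.3 ± 8.66 TPM. Neutrophil and mast cell genes summed to 39.1 ± 21.96 TPM, and their most abundant members were S100a9 (37.7, 10.7, 19.6, 3.65, 34.8 and 2.603 TPM) and S100a8 (8.49 ± 5.47 TPM). This sum was highest in animal 1 and second highest in animal 23 (58.2 TPM), unlike the macrophage sum. The mast cell protease genes Cpa3 and Cma1 averaged 0.949 and 0.859 TPM.

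Among the chemokines Ccl21, which draws T cells and dendritic cells to lymphatic vessels, was the most abundant at 1461 ± 493 TPM, and its fellow ligand of the same receptor, Ccl19, was at 342 ± 151 TPM. The monocyte attractant Ccl2 measured 168, 93.95, 107, 64.5, 68.1 and 50.2 TPM and Cxcl12 was at 366 ± 78.7 TPM. Interferon-stimulated genes did not follow the macrophage pattern. Of 19 above 5 TPM, Ctrl animal 23 was highest for 16 and Ctrl animal 24 lowest for 17. After centring by length these counts were 13 and 18, against 20.7% and 23.9% of all genes. The interferon regulator gene Irf7 measured 59.7, 58.02, 56.1, 66.6, 120.0 and 37.8 TPM, the antiviral GTPase gene Mx2 32.04, 42.7, 42.2, 45.3, 93.6 and 37.2 TPM and the ubiquitin-like gene Isg15 52.02, 48.5, 55.03, 52.2, 94.9 and 34.8 TPM. Animal 23 was highest for all 3, while animal 24 was lowest for Irf7 and Isg15 and animal 1 for Mx2. Ifi27 and Bst2, the most abundant of the list, were at 477 ± 78.6 TPM and 309 ± 39.2 TPM. Of the complement genes Serping1 was at 435 ± 97.8 TPM and C4a at 383 ± 58.1 TPM.

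The gene mutated in the line, Anks6, was transcribed at 18.1 ± 4.004 TPM, with 13.9, 16.6, 13.5, 22.2, 20.1 and 22.4 TPM in Ctrl animals 1, 12, 18, 22, 23 and 24. TPM per gene does not tell the mutated from the normal allele. Its partners Anks3 and Nek8 were at 26.9 ± 5.43 TPM and 15.3 ± 3.84 TPM, the RNA-binding cystic gene Bicc1 at 55.8 ± 16.9 TPM and the hydroxylase gene Hif1an at 10.4 ± 4.37 TPM. Invs, which encodes inversin of the primary cilium, stayed under 5 TPM (4.33 TPM). Of the polycystin genes Pkd2 was at 42.5 ± 4.06 TPM and Pkd1 at 10.4 ± 2.08 TPM. The transcription factor gene Glis2 was at 95.6 ± 18.4 TPM. Apart from Umod, no gene of the cystic disease list had a CV of 0.5 or more.

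Transcripts that respond to handling, oxygen or time of day were measured as well. Immediate early genes summed to 2264, 1815, 1598, 1560.1, 1865 and 1464 TPM in Ctrl animals 1, 12, 18, 22, 23 and 24. Fos measured 98.5, 33.1, 25.8, 11.4, 36.1 and 20.01 TPM and Egr1 156, 73.2, 68.5, 40.3, 84.4 and 64.1 TPM, highest in animal 1 in both cases. The clock gene Per1 measured 16.7, 17.3, 18.8, 51.9, 67.03 and 42.5 TPM, low in animals 1, 12 and 18 and higher in 22, 23 and 24, whereas Dbp was at 209 ± 32.6 TPM and Nr1d1 at 111 ± 18.2 TPM. Times of death were not analysed here. The hypoxia list had 13 genes above 5 TPM and none with a CV of 0.5 or more. Its most abundant genes were Ndrg1 (665 ± 115 TPM), Ldha (347 ± 20.5 TPM) and Vegfa (166 ± 58.2 TPM). Cholesterol synthesis genes summed to 449.6 ± 41.6 TPM with a median CV of 0.153. The kinase gene Sgk1, a target of mineralocorticoids and osmolality, was at 208 ± 72.04 TPM.

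Lists of core cell machinery differed in their variation, and the proteasome had the lowest median CV of all lists. The 39 proteasome genes summed to 5331, 5130.3, 5476, 5111, 5181 and 5083 TPM, a 1.08-fold range, with a median CV of 0.0548. The 77 nuclear genes of the respiratory chain summed to 42558 ± 3208 TPM with a median CV of 0.0922, and animals 1 or 12 were lowest for 64 of 75, against 49.1% of all genes. Centring by length left 64, against 36.6%. Atp5f1b, of the ATP synthase, was at 1849 ± 300.2 TPM with a lowest value of 1423 TPM in animal 1 and a highest of 2186 TPM in animal 24. Ribosomal protein genes summed to 149223, 150882, 134481, 119249, 120028 and 103169 TPM, with a median CV of 0.152, and Ctrl animal 24 was lowest for 71 of 82, against 20.8% of all genes. They are short transcripts, and centring by length left animal 24 lowest for 69, against 23.9% of all genes.

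The genes of lowest CV were Tprg1l, Trappc3, Tfg, Itpa, Snx17, Ufc1, Eloc, Arpc2, Rai2 and Cuta. Tprg1l measured 132, 131, 134, 132, 131 and 131 TPM, the lowest CV of all. The vesicle tethering gene Trappc3 was at 87.1 ± 1.06 TPM and Arpc2, of the actin-nucleating complex, at 415 ± 7.93 TPM. For Tprg1l a CV of 0.0214 follows from counting alone, more than the CV measured.

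Variation between the 6 animals was measured by the CV of TPM. Over the 10339 genes its quartiles were 0.106, 0.164 and 0.249. A CV of 0.3 or more was found for 1726 genes, of 0.5 or more for 459 (4.44%) and of 1 or more for 59 (0.571%). The CV that counting error alone gives (1 over the square root of the mean estimated count) had a median of 0.0406, and 1857 genes (17.96%) had a CV within 2 times that value. Of the 459 genes 40 had a mean count under 30, and 27 were small RNAs, 21 of them with a mean count under 10. After centring by transcript length 437 genes had a CV of 0.5 or more, but the median CV fell to 0.128.

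**Figure D4:**
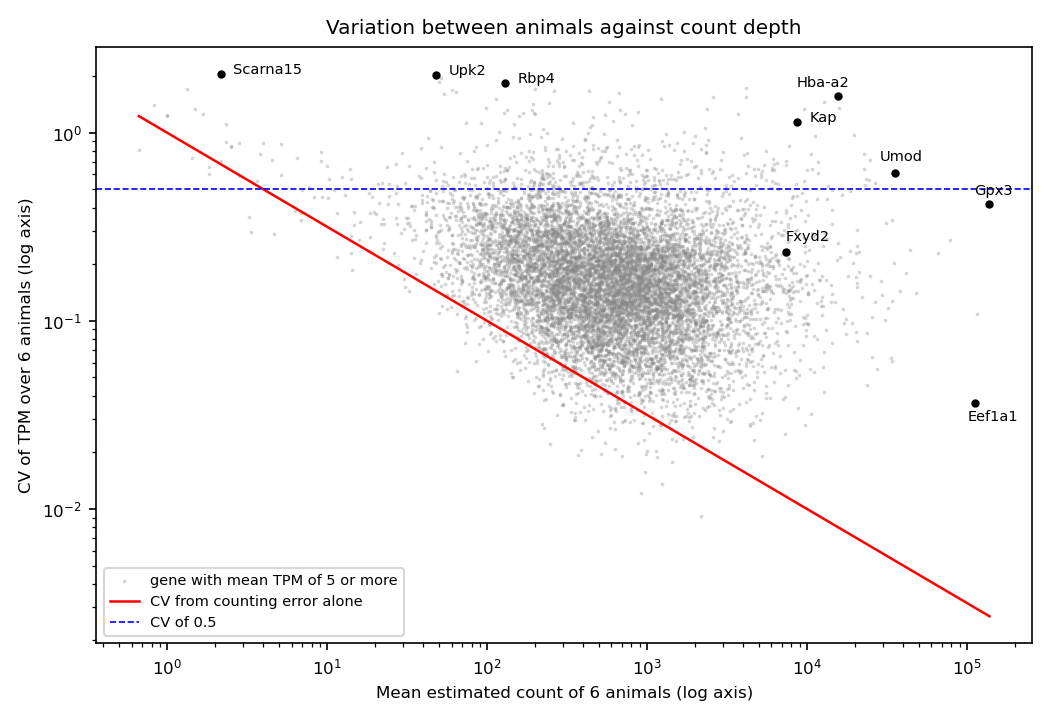
CV of TPM over 6 animals (y, log axis) against mean estimated count (x, log axis) for the 10339 genes with a mean of 5 TPM or more, with the CV from counting error as a line and a CV of 0.5 as a dashed line. Most genes lie above the counting line, and Scarna15 has the highest CV on a mean of 2.17 counts.

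The 30 genes of highest CV ranged from 1.33 to 2.05. The last inside were Aadat (1.329) and Mep1b (1.328), and the first outside were Slc22a24 (1.325) and F2 (1.319). Of these 30 genes 7 were on the red cell list, 3 on the urothelial list and 1, Slc7a13, on a proximal tubule list. Several of the others shared the high animal of one of these lists. Some had too few counts to read. Scarna15, Mir297, Mir6318 and Mirlet7f-1 had mean counts of 2.17, 1.33, 0.833 and 1.5, and Scarna15, with 38.6 TPM in Ctrl animal 12 and 0 in 3 animals, rested on a handful of reads. Chchd2l3 ran from 0.000764 TPM in Ctrl animal 1 to 71.8 TPM in Ctrl animal 23, and fractional values of this kind arise where reads are shared out between near-identical genes, so it is uncertain. 1 gene of the 30 had no symbol in the reference table.

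**Figure D5:**
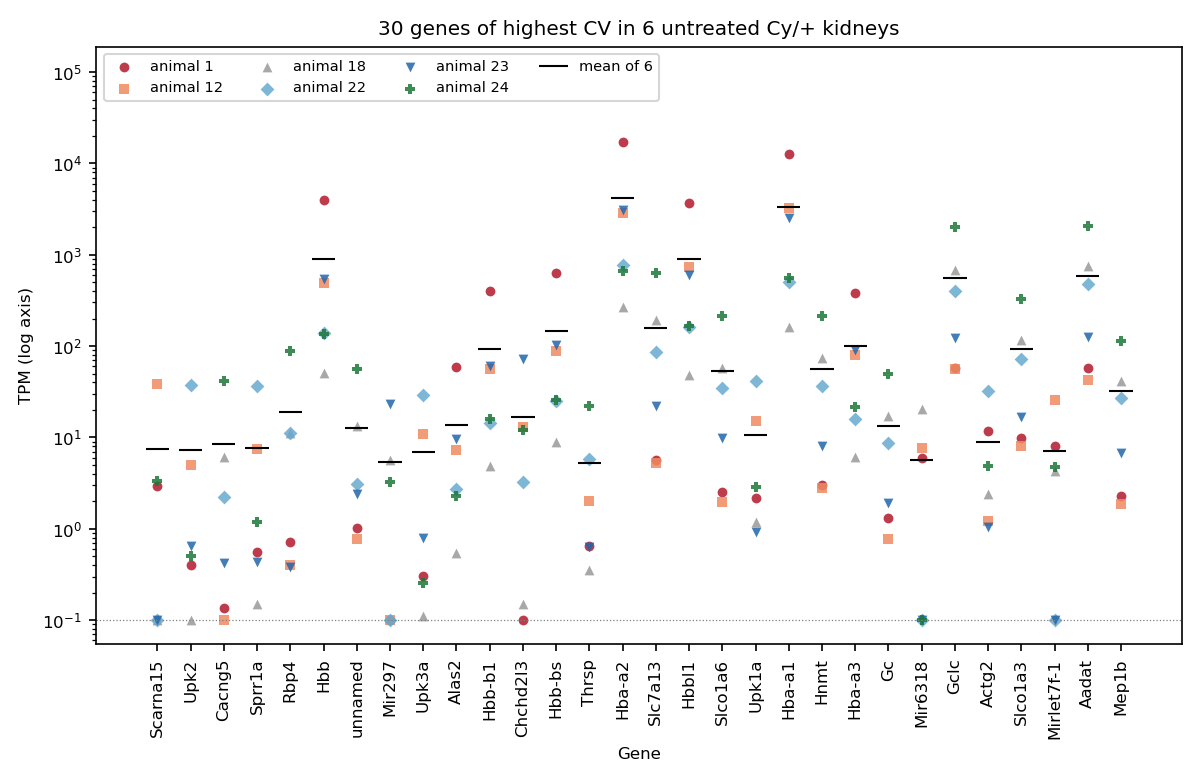
TPM on a log axis (y) of the 30 genes of highest CV (x, in order of CV), 1 symbol per Ctrl animal and a bar for the mean of 6, with values under 0.1 TPM drawn on the dotted line. Globin genes and Alas2 are highest in animal 1, uroplakin genes in animal 22, and Rbp4, Slc7a13, Gclc, Aadat and Mep1b in animal 24.

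Red cell genes formed the first set of these 30. Haemoglobin is made in red cell precursors and its messenger RNA persists in young circulating cells. The left kidney had been taken before perfusion, and how much blood each sample held was not tested. Hba-a2 measured 17144, 2875, 265, 765, 3109 and 667 TPM in Ctrl animals 1, 12, 18, 22, 23 and 24, and Hba-a1 measured 12799, 3268, 162, 507, 2498 and 556 TPM. Hbb measured 4004, 494, 51.3, 137, 543 and 136 TPM, Hbb-bs 629, 88.3, 9.02, 24.8, 102 and 25.7 TPM and Hbb-b1 401, 55.8, 4.91, 14.4, 60.4 and 15.9 TPM. In every one of these genes Ctrl animal 1 stood far above the rest, animals 12 and 23 came next, and animal 18 was lowest. The related genes Hbbl1 and Hba-a3 kept this order, with 3678 and 384 TPM in animal 1 against 48.7 and 6.13 TPM in animal 18. Globin copies are nearly identical, so the split between them is uncertain, and their sum over 11 globin genes ran from 547 TPM in animal 18 to 39039 TPM in animal 1. Alas2, which starts haem synthesis in red cell precursors and is no globin, gave the same order (59.7, 7.32, 0.542, 2.74, 9.64 and 2.26 TPM). The whole red cell list summed to 8799 ± 13379.9 TPM, but to 3453 TPM on average without Ctrl animal 1. Of its 9 genes above 5 TPM, 8 were highest in animal 1, and the other was Slc4a1, which intercalated cells also use and which was highest in Ctrl animal 23.

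The promoters of the beta and alpha globin genes are shown because these genes varied together across the animals. They are the 250 bases before the start of transcription in RefSeq (assembly GRCr8, which is not the build of the files), written 5′ to 3′ on the strand of the gene, and capitals mark matches to CCAAT or TATAAA on either strand. Hbb lies at chr1:167663722-167663971, minus strand, and Hba-a2 at chr10:15829139-15829388, minus strand.
Hbb: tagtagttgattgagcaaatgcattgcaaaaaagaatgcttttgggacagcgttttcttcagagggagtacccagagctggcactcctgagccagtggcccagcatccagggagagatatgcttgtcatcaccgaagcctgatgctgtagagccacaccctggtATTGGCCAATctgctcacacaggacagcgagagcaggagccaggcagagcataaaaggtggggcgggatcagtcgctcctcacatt
Hba-a2: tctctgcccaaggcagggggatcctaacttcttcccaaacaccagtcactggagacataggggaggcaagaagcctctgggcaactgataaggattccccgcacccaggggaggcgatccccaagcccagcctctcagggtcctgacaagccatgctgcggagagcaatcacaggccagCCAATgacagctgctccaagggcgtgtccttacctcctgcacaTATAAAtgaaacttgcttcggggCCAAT
All 7 globin genes above 5 TPM have a CCAAT match in this window. The share was 35.7% of 8435 promoters of genes above 5 TPM and 34.3% of all 27457 promoters in the table. TATAAA is present in 6 of the 7, against 6.72% of the 8435 and 13.1% of all promoters. Globin genes are copies of each other, so the 7 do not count as independent promoters. The Hbb promoter has no exact TATAAA, and its CCAAT stands beside a second, reversed copy.

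Urothelial genes formed the second set, with Ctrl animal 22 highest for 3 of the 4 uroplakins above 5 TPM. Upk1b, under 5 TPM on average, was also highest there (15.3 TPM). The urothelium lines the renal pelvis and ureter, and uroplakins build its watertight surface. Upk2 measured 0.406, 5.05, 0, 37.2, 0.641 and 0.505 TPM in Ctrl animals 1, 12, 18, 22, 23 and 24, Upk3a measured 0.304, 10.9, 0.112, 28.9, 0.801 and 0.252 TPM and Upk1a 2.16, 15.1, 1.19, 41.2, 0.9203 and 2.89 TPM. Animals 22 and 12 were first and second in all 3, and the other 4 stayed under 3 TPM. Sprr1a, a cornified envelope gene of stratified epithelia, had the same order of the first 2 animals (0.551, 7.47, 0.151, 36.6, 0.434 and 1.197 TPM). Actg2, the smooth muscle actin of hollow organs, was also highest in animal 22 (11.9, 1.205, 2.43, 32.1, 1.03 and 4.87 TPM), but animal 1 and not 12 came second. Upk3bl1, named for its likeness to the uroplakins, did not share this pattern and was highest in animal 1 (23.8, 19.7, 16.4, 9.89, 15.9 and 8.600 TPM). The urothelial list summed to 51.3 ± 69.8 TPM, and to 24.1 TPM without Ctrl animal 22. The basal cell genes Krt5 and Krt15 stayed under 5 TPM on average (4.298 and 4.66 TPM). Both were highest in animal 22 as well (23.4 and 15.4 TPM).

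A further set was highest in animal 24, with animals 18 and 22 above 1, 12 and 23 as in the proximal tubule sums, hereafter the proximal order. Membership rests on this order, and of these genes Slc7a13 alone was on a proximal list. Slc7a13, an amino acid carrier gene of the S3 segment, measured 5.68, 5.23, 193, 85.96, 21.9 and 638 TPM in Ctrl animals 1, 12, 18, 22, 23 and 24, a 122-fold range. The aminotransferase gene Aadat measured 57.8, 42.7, 744, 481, 125 and 2081 TPM, and Gclc, the catalytic subunit of the rate-limiting enzyme of glutathione synthesis, measured 57.1, 55.5, 674, 402, 123 and 2008 TPM. In all 3 the order was the same, with animal 24 first, then 18, 22 and 23, and animals 1 and 12 last. The organic anion carrier genes Slco1a6 and Slco1a3, close relatives whose reads may overlap, measured 2.51, 1.99, 57.8, 34.9, 9.97 and 212 TPM and 9.96, 8.07, 116, 72.3, 16.8 and 328 TPM. Both kept the order of the first 3 genes. Hnmt, which inactivates histamine, measured 3.01, 2.77, 74.9, 36.3, 8.11 and 215 TPM. The brush border protease gene Mep1b measured 2.26, 1.85, 41.2, 27.3, 6.79 and 113 TPM. Gc, the vitamin D binding protein gene, measured 1.31, 0.778, 17.4, 8.66, 1.895 and 49.2 TPM. In each of these 3 genes animals 1 and 12 were at the bottom and animal 23 just above them. Rbp4, the retinol carrier gene, measured 0.716, 0.405, 11.3, 11.2, 0.377 and 89.1 TPM, and Cacng5 measured 0.134, 0, 6.04, 2.24, 0.423 and 41.8 TPM. Thrsp, a lipogenic gene, was highest in animal 24 as well (22.2 TPM) but had animals 22 and 12 next, and so did not keep the proximal order.

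The same order ran through a large share of the variable genes. Of the 419 genes with a CV of 0.5 or more and a mean count of 30 or more, 268 (64.0%) were highest in Ctrl animal 24, against 19.9% of all 10339 genes. In 217 of the 419 (51.8%) animal 24 was first and both 18 and 22 exceeded 1, 12 and 23, an order that 6.10% of all genes had. Among the most abundant of them was Kap, the kidney androgen-regulated protein gene of the proximal tubule, with 229.7, 121, 2907, 1632, 332 and 4972 TPM. Tff3, a secreted trefoil peptide gene, measured 53.1, 31.8, 384, 237, 63.1 and 992 TPM, and the reductase gene Akr1c12l1 measured 8.42, 5.28, 119, 75.6, 15.4 and 296 TPM. In these as well animal 24 was first and animal 18 second. Agt, the angiotensinogen gene, measured 3.88, 3.65, 28.2, 14.9, 6.67 and 60.7 TPM. The prolactin receptor gene Prlr measured 4.66, 5.56, 35.1, 29.3, 10.1 and 83.4 TPM. Animals 1, 12 and 23 were the lowest 3 in both genes.

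Families of proximal function were counted next, the carriers and peptidases from lists written after the values had been seen. Of 21 organic ion carriers of the Slc22 and Slco families above 5 TPM, 10 had a CV of 0.5 or more, and Ctrl animal 24 was highest for 15. Slc22a2, which takes up organic cations, measured 23.2, 15.4, 164, 123, 37.3 and 337 TPM, while Slc22a17 and Slco2b1, which other cells express, had CVs of 0.16 and 0.24. Of 8 brush border peptidases 6 had a CV of 0.5 or more and all 8 were highest in animal 24. Anpep, aminopeptidase N, measured 58.6, 61.7, 193, 187, 124 and 439.7 TPM. Of 21 drug-metabolising enzymes above 5 TPM 8 had a CV of 0.5 or more. The fatty acid hydroxylase gene Cyp4a2 was at 1326 ± 950.0 TPM and the glutathione transferase gene Gsta2 at 659 ± 514 TPM, with animal 12 lowest and 24 highest in both. Gstp1, another transferase gene, was at 711 ± 93.1 TPM, a CV of 0.13.

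A few genes of glutathione synthesis and stress response varied far more than others of their group. Gclc, Gclm and Osgin1 are among the genes switched on by the oxidative stress factor Nrf2. Gclm measured 113, 127, 311, 233, 170.4 and 855 TPM and Osgin1 16.3, 23.4, 62.6, 60.3, 25.5 and 176 TPM, with the high values of both in animal 24. Of 14 Nrf2 target genes above 5 TPM, these 3 alone had a CV of 0.5 or more. Nqo1 was at 9.49 ± 1.13 TPM, Hmox1 at 20.4 ± 4.13 TPM and Srxn1 at 17.1 ± 3.44 TPM, and the median CV of the 14 was 0.161, close to the 0.164 of all genes.

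Promoters of Kap, Gc and Akr1c12l1 are shown because all 3 genes had the proximal order and share a short motif. The 250 bases before the RefSeq start (GRCr8) are written 5′ to 3′ on the strand of the gene, with matches to GTTAAT and CCAAT in capitals. Kap lies at chr4:168409033-168409282, minus strand, Gc at chr14:18916005-18916254, plus strand and Akr1c12l1 at chr17:70847504-70847753, plus strand.
Kap: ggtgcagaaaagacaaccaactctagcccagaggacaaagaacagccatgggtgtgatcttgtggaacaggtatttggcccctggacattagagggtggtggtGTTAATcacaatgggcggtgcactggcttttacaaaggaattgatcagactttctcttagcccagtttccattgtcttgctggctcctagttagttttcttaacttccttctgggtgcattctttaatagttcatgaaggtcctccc
Gc: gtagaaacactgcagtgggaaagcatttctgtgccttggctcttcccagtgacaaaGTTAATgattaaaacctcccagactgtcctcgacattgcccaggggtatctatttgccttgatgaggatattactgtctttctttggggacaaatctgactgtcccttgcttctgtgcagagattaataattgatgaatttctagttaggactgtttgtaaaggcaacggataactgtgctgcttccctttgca
Akr1c12l1: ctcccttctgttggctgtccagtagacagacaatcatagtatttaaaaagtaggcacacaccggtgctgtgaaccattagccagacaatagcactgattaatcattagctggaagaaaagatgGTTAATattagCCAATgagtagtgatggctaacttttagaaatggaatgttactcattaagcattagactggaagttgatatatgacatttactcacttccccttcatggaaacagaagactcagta
Of the 217 genes with the proximal order 177 had a promoter in the table, and 23 of these (13.0%) hold GTTAAT on either strand. The share was 3.995% of 8435 promoters of genes above 5 TPM and 6.46% of all 27457. TATAAA was found in 15.3% of the 177, against 6.72% of the 8435 and 13.1% of all 27457. TGACNNNGC, the core of the antioxidant element, was found in 11.9%, against 12.8% of the 8435 and 10.2% of all. AGATAA was found in 5.65%, against 5.49% of the 8435 and 10.05% of all. These matches describe the letters in the window and not binding.

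Of the 5 genes of the adipose list above 5 TPM 4 were highest in Ctrl animal 24. The other, Lpl, was steadier at 52.2 ± 6.06 TPM and highest in Ctrl animal 23. The list summed to 133, 132, 122, 202, 116 and 378 TPM in Ctrl animals 1, 12, 18, 22, 23 and 24, with Fabp4, a fatty acid carrier that endothelial cells also express, at 40.7, 30.7, 28.8, 81.4, 19.2 and 190.2 TPM. Adipoq, the adipocyte hormone, was at 24.1 ± 9.61 TPM and highest in animal 24 (43.1 TPM). Cidec, a lipid droplet gene, kept the proximal order (2.08, 1.78, 10.8, 10.3, 4.21 and 32.01 TPM). Npy, a neuropeptide gene, measured 69.1, 38.5, 4.35, 5.46, 78.02 and 4.95 TPM. It was high in animals 1, 12 and 23 and low in 18, 22 and 24. This split was that of the globin genes and the reverse of the proximal genes. Npy was highest in animal 23, whereas the globin genes were highest in animal 1.

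Whole profiles were compared pair by pair. The closest pair were Ctrl animals 18 and 22, with a median absolute log2 difference of 0.15 and 107 genes at least 2-fold apart. Animals 1 and 24 had the most such genes, 1106, and animals 1 and 23 the largest median difference, 0.38. The proximal sums and the macrophage sum did not run in a simple opposition, since Ctrl animal 23 was low for both and Ctrl animal 18 was above the mean for both.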

How the data were processed

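Whole left kidney RNA of 6 untreated PKD/Mhm (Cy/+) rats was analysed, 1 library per animal, grouped by the labels. For each animal the authors deposited estimated counts, which were not normalised, and TPM values, which are adjusted for length and sequencing depth (sums over the genes listed, 965066 to 972221). Per the submitters' processing notes, reads were trimmed with Trim Galore 0.6.4 and quantified with kallisto 0.4.6, and the build was rn6. The methods cite a human gene annotation package, without stating what it was used for, and DESeq2 for testing. Symbols came from a RefSeq table of the assembly GRCr8, in which 17179 of 17334 identifiers were found. The 18 treated samples were not used.

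Genes with a mean of 5 TPM or more were kept, and the CV (SD over mean, n = 6) was set beside 1 over the square root of the mean estimated count. No groups were compared. Single animals far from the other 5 were marked by Dixon's 95% limit. Named genes were the 30 highest by mean TPM, the 30 highest and 10 lowest by CV, the 3 most abundant and the most variable member of each of 40 marker lists, list members at 0, Anks6 and the neighbours of each cut. Others were named after their values were seen, and some genes of the rule are not reported here. Members and lists were chosen with earlier results of these data known, and 5 lists were added afterwards. Alternatives used CPM with scaling from edgeR 4.0.16 (TMM) or DESeq2 1.42.0 (median ratio), other cuts, other measures of spread, and each animal left out. Effective length was taken from the ratio of count to TPM. The CV code was tested on simulated data. Libraries of 10405757 to 14125457 counts limit precision, and counting errors cover counting only, as reads carry no molecular identifiers. Near-identical copies are uncertain, and strand handling is not given in the sources used here.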

Additional observations from a re-analysis of the deposited data

Results flagged for a closer look

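A single animal lay far from the other 5 in the values below (list sums, named genes, total count and Rn18s), by a gap above Dixon's 95% limit for 6 samples. This limit is passed by chance in about 1 in 20 groups. Over all 10339 genes with a mean of 5 TPM or more the share was 4.23% (437 genes). Most of the genes named here had been chosen for their high CV in the same 6 animals, which favours such gaps, so their number is a description only.

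Ctrl animal 1 stood apart in red cell genes. Its red cell sum was 35525 TPM, against 588 to 6995 TPM in the others. Its levels were 17144 TPM for Hba-a2, 12799 TPM for Hba-a1, 4004 TPM for Hbb, 629 TPM for Hbb-bs, 401 TPM for Hbb-b1 and 59.7 TPM for Alas2. Rn18s was also highest there, at 3153 TPM against 457 to 1131 TPM. The part of blood or of ribosomal RNA carry-over in these values was not tested.

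Ctrl animal 22 stood apart in urothelial genes. Its urothelial sum was 187 TPM, against 9.14 to 64.9 TPM elsewhere, and it had 37.2 TPM of Upk2, 28.9 TPM of Upk3a and 36.6 TPM of Sprr1a. How much renal pelvis each sample held was not tested.

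Ctrl animal 24 stood apart in Rbp4 (89.1 TPM), Cacng5 (41.8 TPM), Thrsp (22.2 TPM) and the adipocyte sum (378 TPM against 116 to 202 TPM). Ctrl animal 23 had the lowest total count, 10405757 against 13320840 to 14125457, and the highest Fxyd2, 20521 TPM, which carried its thin limb sum of 21042 TPM. It was also far above the others in Chchd2l3 (71.8 TPM) and Mir297 (23.4 TPM). Ctrl animal 12 was so in Scarna15 (38.6 TPM). Mir297 and Scarna15 rested on mean counts of 1.33 and 2.17.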

How the results depend on the processing

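Of 84 recomputed summary values 65 were counted as unchanged and 19 as moved. The limits were wide: 376 genes against 459, or a list that kept 21 of 30 genes, counted as unchanged. Of the 30 most variable genes, leaving out 1 animal kept between 19 (without Ctrl animal 18) and 26. Genes with a CV of 0.5 or more then numbered 376 to 524. CPM (counts scaled to library total) with TMM or median-ratio scaling, not divided by length, gave a median CV of 0.139 in both cases, kept 12 of the 30 most abundant genes in both, and put 5.45% of the total in the first 10. A cut of 1 TPM gave a median CV of 0.185, 853 genes and 8 of the 30 most variable, and a cut of 20 TPM gave 0.138, 244 and 14. Requiring 5 TPM in every animal gave 276 genes and kept 10. The SD of log2(TPM + 0.1) kept 14, the median absolute deviation over the median 15, and a mean count of at least 100 kept 19. Centring each animal within 5 classes of transcript length, chosen after seeing the data, gave a median CV of 0.128, 437 genes and 29 of the 30, and 33 of 40 lists kept their highest animal. The red cell sum was 8799 TPM and 3453 TPM without Ctrl animal 1, and the urothelial sum was 51.3 TPM and 24.1 TPM without Ctrl animal 22, both within an SD that these animals themselves widened. Among 280 recomputed list sums the proteasome sum alone moved by more than its SD, to 5387 TPM after rescaling all animals to 1 total. No paired analysis was possible because there was 1 group. Depth limits the small RNAs, of which 21 of the 27 with a CV of 0.5 or more had under 10 counts on average.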
